A study of Mus musculus with 6 samples.

Results

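Ciliary transport and ciliopathy genes were followed through the development of the C57BL/6J mouse retina. The 34 genes, listed by their known roles, encode subunits of the intraflagellar transport (IFT) particles, the BBSome and its helpers, the transition zone and the connecting cilium of photoreceptors. Poly(A) sites were assigned by their 3′ edge, which had to fall inside a GENCODE M21 model of a member (mm10, same strand) or no more than 1000 bases past its end. Of the 34 genes, 32 had at least 1 site, with 86 sites in all, against 14732 nuclear genes with a site and 32688 sites in the whole series. Ift80 and Ttc8 had no site under this rule and were not analysed here. Of the 32 measured members, 12 had 1 site and 20 had 2 or more, up to 16 in Rpgrip1, and all 32 passed the filter on low values. Bbs12 shares both of its sites with the overlapping gene model Gm43439, and Mkks shares sites with the overlapping model AL731706.1.

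Retinas were taken at embryonic days E13.5, E15.5 and E18.5 and at postnatal days P0, P6 and P21; each stage had 1 sample, and the labels name no treatment and no genetic change. PA-seq primes reverse transcription with oligo(dT) on sheared RNA and counts tags at the 3′ ends of polyadenylated transcripts, keeping the strand. The number of animals behind a sample was not stated. Every stage had 2 columns of counts whose meaning was not stated; they were added for the values below and are given apart where they differ.

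Cilia are built and maintained by IFT particles, which motors carry along the axoneme: IFT-B with kinesin toward the tip and IFT-A with dynein back to the base. The BBSome, a coat-like complex recruited to membranes by the small GTPase Arl6, moves membrane proteins through the cilium, and the transition zone gates its base. In a photoreceptor the outer segment is a modified cilium, joined to the cell body by the connecting cilium. Loss of some of these genes in people causes retinal degeneration, alone (Leber congenital amaurosis, retinitis pigmentosa) or with other organs affected (Bardet-Biedl and Joubert syndromes).

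No value has a replicate. The test between stages asked whether a gene followed stage order, with edgeR's quasi-likelihood test of a linear term over the 6 libraries; the fitted change is the log2 change along that line over all 5 steps, P21 against E13.5, given with its standard error (SE). A gene was called at a Benjamini-Hochberg adjusted p of 0.05 or less over all 14728 genes tested, and these p-values set the trend against departures from a straight line, not against differences between animals. Over all genes 17.0% rose and 13.2% fell under this rule. Levels are in CPM, the tags of a gene per 1000000 tags in genes, with library sizes scaled by TMM (a normalization that leaves most genes level). Of the 32 members 13 rose, 2 fell and 17 did not pass, with a median fitted change of 0.59, against -0.02 over all genes. In bulk retina, fewer cells of a type and less RNA per cell cannot be told apart.

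The libraries held 3286158 to 4656153 tags, of which 95.5% to 97.5% lay in nuclear genes, and 3 tags, taken as the detection floor, corresponded to 0.664 to 0.943 CPM before scaling. The labelled tissue was checked with marker genes. The 10 rod and photoreceptor markers summed to 1009.8, 2138, 1442, 2643, 5861 and 7699 CPM from E13.5 to P21, and 9 of them rose. The 10 retinal progenitor markers summed to 1122 CPM at P21 and 4176 CPM at E13.5, and 6 of them fell. Lens markers stood apart at E15.5 and P0, with sums of 2333 and 2636 CPM, against 201 to 940.5 CPM at the other stages, so results were also computed without both libraries. The rod and photoreceptor markers summed to 8383 CPM in the first and 7015 CPM in the second column at P21, against 1727 and 185 CPM at E13.5. The columns also parted late for other genes. Progenitor markers summed to 1497 and 747 CPM at P21 in the first and second columns, against 4009 and 4368 CPM at E13.5. The lens gene Cryaa had 1177 and 6 tags at P0. Ganglion cell markers lay close, at 1561 and 1509 CPM at P21.

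Calls differed in number between the role groups. Of the 13 IFT members 1 rose, 2 fell and 10 did not pass, whereas 6 of the 7 BBSome and Arl6 members rose. Of 5 transition zone members 3 rose, and of 4 connecting cilium members 2 rose, these with the greatest fitted changes of the 32. Among the 3 chaperonin-like genes that assemble the BBSome, 1 rose.

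**Figure D1:**
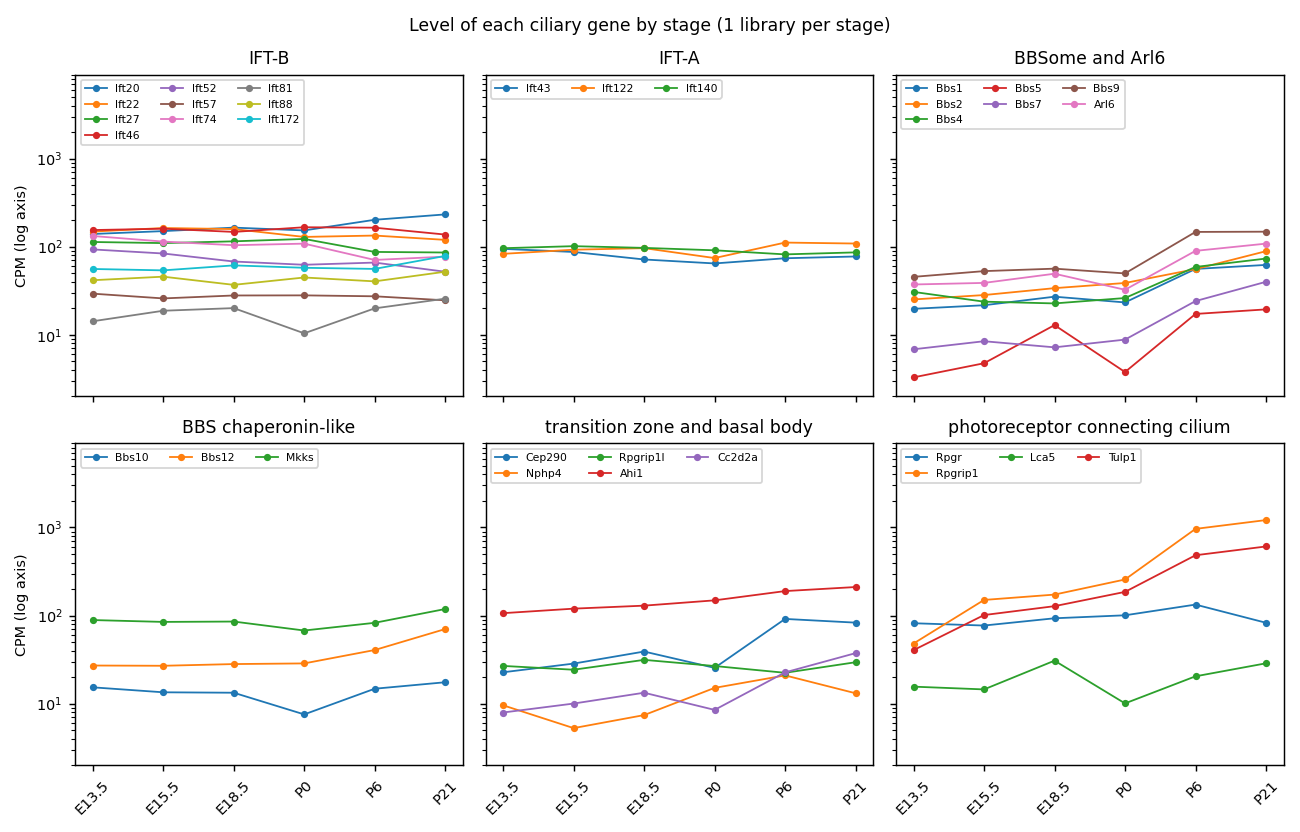
Level of each of the 32 measured members (CPM, log axis) at the 6 stages, in 1 panel per role group, with 1 library per stage. The sum of the IFT members varies little, 6 of the 7 BBSome and Arl6 lines step up at least 2-fold between P0 and P6, and Rpgrip1 and Tulp1 reach 1214 and 609 CPM at P21, against 48.2 and 40.5 CPM at E13.5.

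**Figure D2:**
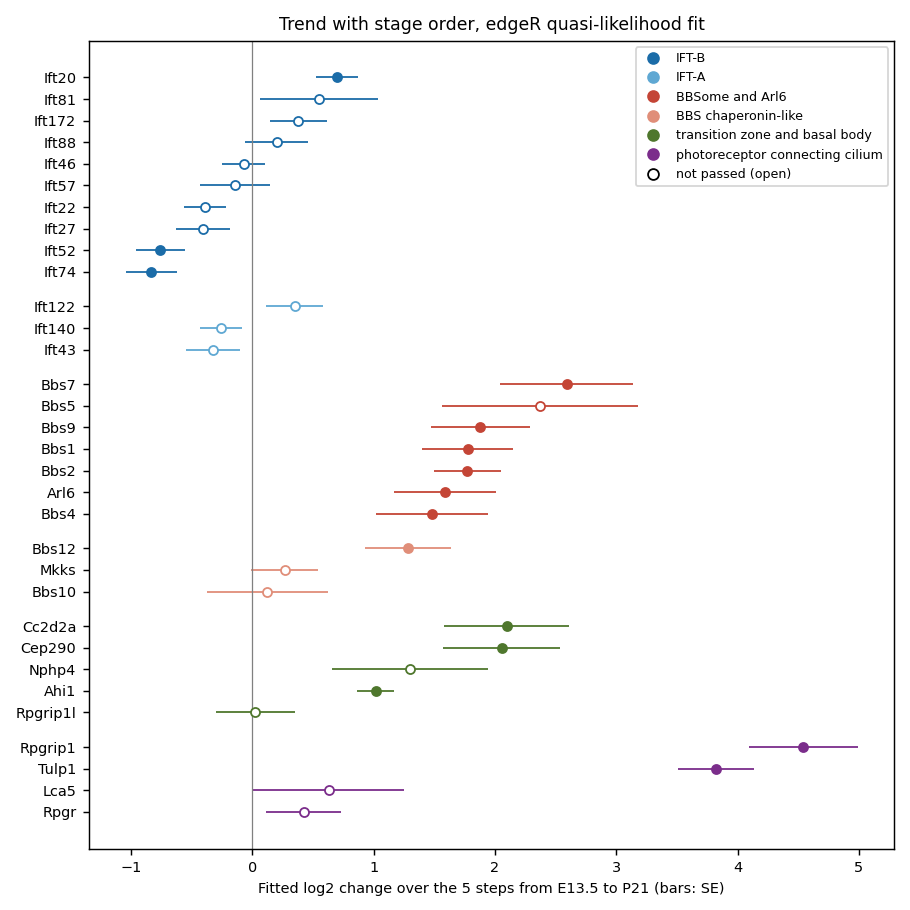
Fitted log2 change, P21 against E13.5 along the line over stage order, for each member (horizontal axis), by role group, with bars of 1 SE. Filled points passed an adjusted p of 0.05 and open points did not; the IFT members lie between -0.83 and 0.70 and the BBSome and Arl6 members between 1.48 and 2.59.

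Rpgrip1 and Tulp1, both of the connecting cilium, had the largest fitted changes of the members, while the other connecting cilium genes, Rpgr and Lca5, did not pass. Rpgrip1 encodes the scaffold that anchors the Rpgr protein in the connecting cilium. It stood at 48.2, 151, 173, 257, 964 and 1214 CPM from E13.5 to P21, higher at each stage than at the one before in the summed columns. Its fitted change was 4.54 ± 0.45 (edgeR, adjusted p = 0.00256), and the observed ratio of P21 to E13.5 was 25.2 (95% interval 21.7 to 29.4, counting error only). Tulp1, a tubby-like protein needed for protein transport in photoreceptors, stood at 40.5, 101, 128, 186, 484 and 609 CPM, also in unbroken ascent in the summed columns. Its fitted change was 3.82 ± 0.31 (edgeR, adjusted p = 0.00241), with a P21 to E13.5 ratio of 15.0 (12.7 to 17.9). Both calls held without any single library, with adjusted p of at most 0.0249, and in each column alone, where the fitted changes were 3.59 and 6.87 for Rpgrip1 and 3.00 and 5.29 for Tulp1 by the first and the second columns.

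The early levels of these genes depended on the column. Rpgrip1 had 2116 tags in the first column and 2321 in the second at P21, against 168 and 8 at E13.5. Its P21 to E13.5 ratio was therefore 13.5 (11.5 to 15.8) by the first column of each stage and 269.7 (137 to 625) by the second. Tulp1 had 1019 and 1207 tags at P21, against 123 and 25 at E13.5, for ratios of 8.85 (7.34 to 10.8) and 44.9 (30.3 to 69.6). In the first columns both genes were lower at E18.5 than at E15.5, Rpgrip1 at 198 against 238 CPM and Tulp1 at 127 against 151 CPM. From E13.5 to P21 the direction was the same in both columns. How low these genes stood at E13.5 was not fixed by the data, and the source of the difference was not tested. In contrast, IFT members summed to 1178 and 1216 CPM in the first and second columns at E13.5, and the BBSome and Arl6 members to 180.3 and 155 CPM.

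**Figure D3:**
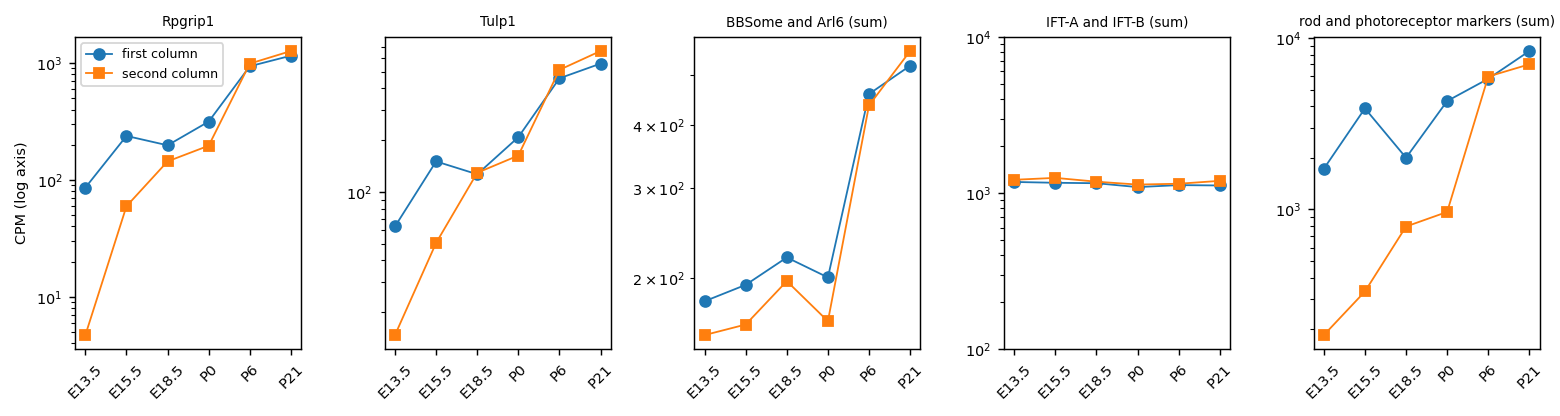
CPM on log axes by stage in the first column (circles) and the second column (squares) of each stage, for Rpgrip1, Tulp1, and the sums of the BBSome and Arl6 members, of the IFT members and of the rod and photoreceptor markers. The columns part at the early stages for Rpgrip1, Tulp1 and the rod markers, and lie close together for the IFT sum.

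Rpgr, a regulator of GTPases at the connecting cilium whose loss causes X-linked retinitis pigmentosa, stood at 81.9, 77.1, 93.2, 101, 133 and 82.9 CPM, with its highest value at P6 (fitted change 0.42 ± 0.31). Its P21 to E13.5 ratio was 1.01 (0.860 to 1.19). Lca5 encodes lebercilin, an IFT-associated protein of the connecting cilium. It stood at 15.6, 14.5, 30.8, 10.1, 20.5 and 28.7 CPM, high at E18.5 and low at P0 (fitted change 0.63 ± 0.62).

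Of the BBSome and Arl6 members 6 rose, and the summed level of the group stepped up between P0 and P6. The 6 measured BBSome subunits and Arl6 summed to 168.4, 178.5, 209.4, 183.0, 448.7 and 540.1 CPM, so that the embryonic stages and P0 lay well under P6 and P21. Both P6 and P21 stood above all 4 earlier stages in 7 of the 7 genes, an order found in 24.4% of all genes tested. Across all members it was found in 15 of 32. The step from P0 to P6 was at least 2-fold in 6 of the 7 (all but Bbs2), against 8.81% of all genes (where 1 of the libraries had 20 tags or more). These 2 ways of counting were chosen after the levels were seen. The 2-fold count rests in part on low levels at P0. From E18.5 to P6, Arl6 went from 49.3 to 89.7 CPM and Bbs5 from 12.9 to 17.2 CPM, both under 2-fold. The rod and photoreceptor markers also stepped up here, with sums of 5861 CPM at P6 and 2643 CPM at P0. At the earlier stages the 2 courses differed. The markers summed to 1009.8, 2138 and 1442 CPM at E13.5, E15.5 and E18.5, and were higher at P0 than at E18.5. The BBSome and Arl6 sum was lower at P0 than at E18.5. By column the markers summed to 5777 CPM at P6 and 4286 CPM at P0 in the first, and to 5954 and 968 CPM in the second. The BBSome and Arl6 members summed to 460 CPM at P6 and 201 CPM at P0 in the first columns, and to 437 and 165 CPM in the second. The part of the markers in the BBSome rise was not tested.

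Bbs9 and Arl6 were the most abundant of the group. Bbs9, a subunit of the BBSome core, stood at 45.5, 52.8, 56.3, 49.8, 147 and 148 CPM (fitted change 1.88 ± 0.41, edgeR adjusted p = 0.0149). Its P6 to P0 ratio was 2.96 (2.48 to 3.55), and P21 lay level with P6. Arl6 stood at 37.2, 38.8, 49.3, 32.4, 89.7 and 108 CPM (1.59 ± 0.42, adjusted p = 0.0281), with a P6 to P0 ratio of 2.77 (2.22 to 3.48).

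Bbs1, Bbs4 and Bbs2 stood lower. Bbs1, which binds Arl6, stood at 19.7, 21.7, 27.1, 23.3, 55.9 and 62.1 CPM (1.78 ± 0.38, edgeR adjusted p = 0.0139). Bbs2 stood at 25.2, 28.3, 33.8, 38.7, 55.7 and 88.9 CPM (1.77 ± 0.28, adjusted p = 0.00558), higher at each stage than at the one before. Its P6 to P0 ratio was 1.44 (1.15 to 1.81), and its level went up again by P21. Bbs4 stood at 30.7, 23.8, 22.7, 26.1, 58.9 and 73.3 CPM (1.48 ± 0.46, adjusted p = 0.0463).

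Bbs7 and Bbs5 had the lowest counts of the complex. Bbs7 stood at 6.85, 8.45, 7.20, 8.82, 24.1 and 39.9 CPM (2.59 ± 0.55, edgeR adjusted p = 0.0138), so the 4 stages up to P0 lay within 2 CPM of each other. Bbs5 stood at 3.29, 4.75, 12.9, 3.78, 17.2 and 19.4 CPM and did not pass (2.37 ± 0.81, adjusted p = 0.0601). It had 12 tags at P0 and 59 at E18.5, the 59 made up of 33 in the first column and 26 in the second, and its call was made without E18.5 and without P0.

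Without P21 the calls of all 6 rising genes of this group were lost (adjusted p from 0.0517 for Bbs2 to 0.264 for Bbs4), although their fitted changes stayed between 1.10 and 2.03. The call of Arl6 was also lost without E13.5, E15.5, E18.5 or P6. That of Bbs4 was also lost without E15.5, E18.5 or P6 and in the first columns. The median log2 P21 to E13.5 ratio of the 7 genes was 1.55 by the first column of each stage and 1.89 by the second, against 1.70 for both together.

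Of the chaperonin-like genes, whose products fold and assemble the BBSome, Bbs12 passed and Mkks and Bbs10 did not. Bbs12 stood at 27.1, 26.9, 28.2, 28.7, 40.7 and 70.3 CPM and rose (1.28 ± 0.35, edgeR adjusted p = 0.0315), a call lost without any of 5 libraries (every one but P0). Mkks stood at 89.0, 84.8, 85.6, 67.7, 82.8 and 119 CPM and did not pass (0.27 ± 0.27). Bbs10 lay between 7.56 and 17.5 CPM, lowest at P0.

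Of the transition zone genes, Cep290, Cc2d2a and Ahi1 rose. Cep290, which tethers the microtubules to the ciliary membrane and is a frequent cause of Leber congenital amaurosis, stood at 22.7, 28.5, 39.1, 25.5, 91.7 and 83.2 CPM (2.06 ± 0.48, edgeR adjusted p = 0.0189), with a P6 to P0 ratio of 3.59 (2.82 to 4.63). Cc2d2a, a C2-domain protein of the ciliary gate, stood at 7.94, 10.04, 13.3, 8.50, 22.7 and 37.5 CPM (2.10 ± 0.52, adjusted p = 0.0219). Both genes were lower at P0 than at E18.5 and higher at P6 than at any earlier stage, as were Bbs9 and Arl6. Both calls were lost without E13.5, without E15.5 or without P21, and that of Cc2d2a also without P6.

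Ahi1, the Joubert syndrome protein jouberin, went up smoothly instead, at 107, 120, 130, 149, 190 and 211 CPM (1.02 ± 0.15, edgeR adjusted p = 0.00509). With Rpgrip1 and Tulp1 it was 1 of 3 member calls that held without P21. Nphp4, a nephrocystin, lay between 5.28 and 20.9 CPM, highest at P6, and Rpgrip1l, the paralogue of Rpgrip1 in cilia generally, between 22.4 and 31.4 CPM. Neither passed, with fitted changes of 1.30 ± 0.64 and 0.02 ± 0.33.

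The sum of the IFT genes varied little. The 13 measured members summed to 1195, 1206, 1168, 1112, 1135 and 1158 CPM over the stages. Their median fitted change was -0.14, with -0.11 for the 10 IFT-B members and -0.26 for the 3 IFT-A members. None reached a 2-fold step from P0 to P6, against 8.81% of all genes. Among 13 genes a count of 0 lies near that share and is not read as a trait of the IFT members. Ift81 came closest, with a P6 to P0 ratio of 1.92 (1.27 to 2.97).

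Within that sum 3 IFT-B genes moved. Ift20, a small subunit also found at the Golgi, stood at 139, 150, 165, 153, 202 and 233 CPM and rose (0.70 ± 0.17, edgeR adjusted p = 0.0224). Ift74, which forms a tubulin-binding pair with Ift81, stood at 132, 114, 104, 108, 70.7 and 77.2 CPM and fell (-0.83 ± 0.21, adjusted p = 0.0247). Ift52, a subunit of the IFT-B core, stood at 93.1, 83.7, 67.9, 62.3, 66.0 and 52.0 CPM and fell (-0.76 ± 0.20, adjusted p = 0.0281).

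All 3 fitted changes were under 1 in size, and leaving out E13.5, E15.5 or P21 ended each call, as did leaving out P6 for Ift20 and Ift74 and using the second columns alone for Ift52. Both falls were also not called when stage order was replaced by days after conception (adjusted p = 0.0603 for Ift52 and 0.0614 for Ift74) or without E15.5 and P0 together. Of the 10 retinal progenitor markers 6 fell over the same stages, and their part in the falls was not tested.

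The other IFT members did not pass. Ift46 ranged from 137 to 166 CPM and Ift22 from 120 to 163 CPM. Of IFT-A, Ift122 stood at 83.0, 92.4, 96.3, 74.3, 111 and 109 CPM and Ift140 at 96.1, 101, 96.9, 91.0, 81.8 and 86.2 CPM, in neither case past the threshold. Ift27, Ift43, Ift57, Ift88 and Ift172 each kept within a range of 24.6 to 122 CPM, and Ift81 was highest at P21 with 25.7 CPM and lowest at P0 with 10.4 CPM.

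Other genes of the same pathways were counted by the same rule, under which 17.0% of all genes tested rose and 13.2% fell. None of 10 further IFT particle genes passed in edgeR, with a median of 0.01, and 0 of them had an unadjusted p under 0.05 or were called by DESeq2. Of 12 cilium motor genes 3 rose and 1 fell: Wdr60, of the retrograde dynein, had a fitted change of 2.32 ± 0.49, the kinesin Kif17 of 2.26 ± 0.65 and Kif3b of 1.48 ± 0.38. Of 8 further BBS-related genes 1 rose, Lztfl1, a regulator of BBSome entry (1.23 ± 0.33), and 1 fell, Rab8a (-0.58 ± 0.15). Of 17 further transition zone genes 1 rose, Tctn1 (1.34 ± 0.33). The rising share was 25.0% of the motor, 12.5% of the BBS-related and 5.88% of the transition zone genes. Of these lists only the motors lay above the share over all genes. That rests on 3 of 12 genes, too few to be read as a trait of the motors, whose median fitted change was -0.06.

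Of 19 further photoreceptor cilium genes 10 rose and 2 fell, led by the axonemal proteins Rp1 (5.40 ± 0.73) and Rp1l1 (4.80 ± 0.54) and the kinase Mak (4.33 ± 0.47). Motile cilia genes, of which 10 of 15 had a site, served as a list outside the sensory cilium, and 2 rose and 2 fell. Dnah9, a dynein heavy chain, had a fitted change of 3.72 ± 0.76, Dnaic2 of 2.84 ± 0.60 and Ccdc40 of -2.58 ± 0.55. Dnah9 stood near the detection floor at E13.5 (0.822 CPM), at 2.90 to 5.04 CPM from E15.5 to P6, and at 22.4 CPM only at P21.

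The share of tags by location is given without a test. Sites in annotated 3′ UTRs held 92.5%, 91.2%, 90.7%, 90.0%, 83.1% and 80.8% of member tags from E13.5 to P21, and sites in introns 1.56%, 2.33%, 2.66%, 3.28%, 7.31% and 7.54%. Rpgrip1 made up 28.8% of member tags at P21 and 2.60% at E13.5. Without it, 3′ UTR sites held between 93.2% and 94.4% of member tags at every stage, with 93.2% at P21 and 93.3% at E13.5, and intronic sites 2.51% at P21 and 1.24% at E13.5. Rpgrip1, whose 16 sites include 8 in introns, had 19.97% of its tags in introns at P21 and 13.6% at E13.5. Of its tags, 50.2% at P21 and 64.2% at E13.5 fell in its 3′ UTR. A further site at the end of an M21 noncoding or decay-targeted transcript held 19.2% of Rpgrip1 tags at P21 and 16.5% at E13.5. The main sites of Rpgrip1 and Tulp1 end as follows, with the poly(A) signal, the hexamer that directs cleavage, in capitals (last 30 bases up to the edge from GENCODE M21 transcripts, mm10, chr14:52161305-52161334 on the plus strand and chr17:28351517-28351546 on the minus strand), shown because these genes changed most:
Rpgrip1 main site: aggaaaAATAAAaaagtaaagaaaaaagaa
Tulp1 main site: ccccAATAAAgtcacgtccgaggctgaacg

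**Figure D4:**
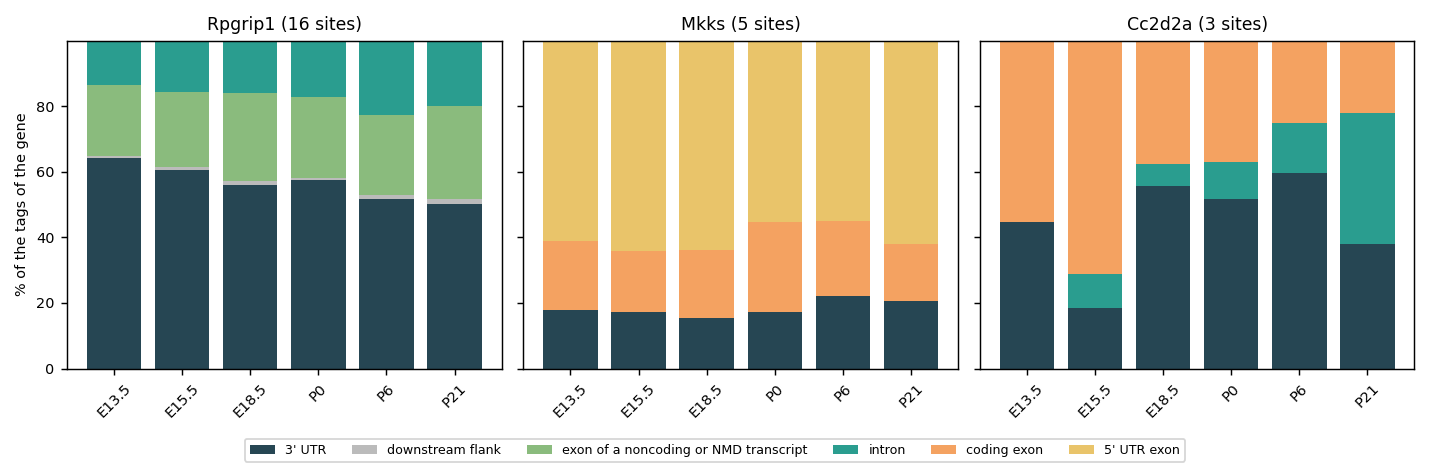
Percentage of the tags of Rpgrip1, Mkks and Cc2d2a at each stage (bars to 100%) that fell in each kind of location in M21 models. At most 22.0% of Mkks tags, shared sites included, lay in the 3′ UTR at any stage, and the intronic share of Cc2d2a was 40.1% at P21.

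Most tags counted for Mkks lay upstream of its last exon, but the larger part of them is shared with another model. Of all its tags 60.7% lay at 2 sites in 5′ UTR exons, both of which also fall in the overlapping model AL731706.1, so these tags cannot be told apart between the models. A further 20.8% lay at 2 coding exon sites and 18.5% at the 3′ UTR site, which are not shared. The gene in human is known for short transcripts that end early and carry small upstream reading frames. Both leading sites and the 3′ UTR site carry the canonical poly(A) signal, shown in capitals in the last 30 bases before each cleavage edge (GENCODE M21 transcript sequence, mm10, minus strand, chr2:136881411-136881440, chr2:136881271-136881300 and chr2:136873782-136873811), a set chosen after the values were seen:
Mkks upstream site 1: aAATAAAgactttggattattaatgtcatt
Mkks upstream site 2: gtgcAATAAAatgaaagccatatgaacaaa
Mkks 3′ UTR site: atattttAATAAAatgatctgtgttcccta
Within the upstream pair, 140 bases apart, site 2 took 42.7%, 51.9%, 53.6%, 58.0%, 59.5% and 64.3% of tags from E13.5 to P21, higher at each stage than before, but the shift did not pass over all genes (edgeR diffSpliceDGE, adjusted p = 0.318).

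Site choice was tested on the 2 strongest sites of a gene, which 17 members had in sufficient depth; distal means the 3′-most site. Over all 6202 genes tested, 1.95% shifted distal and 0.79% proximal. Among the members 0 shifted distal and 1 shifted proximal at an adjusted p of 0.05. An unadjusted p under 0.05 was reached by 5 members in edgeR diffSpliceDGE, the single tool used here: Ift22, Ift74 and Cc2d2a toward the distal site, and Rpgr and Bbs12 toward the proximal. Over all genes tested 12.1% reached that threshold toward the distal site and 4.35% toward the proximal. The proximal site of Ift74, like that of Cc2d2a, lies in a coding exon before A-rich sequence, on which oligo(dT) can prime. This Ift74 site held 48 tags at E13.5 and 14 at P21, and the part of such priming was not tested. The fitted odds of the distal site were above their start in 14 members and under it in 3, against 62.1% of all genes above it.

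Rpgr was the gene that passed. Its proximal site lies in an intron of the M21 models (edge at chrX position 10173707), 15488 bases before the site in its 3′ UTR (10158219). The proximal site held 7, 6, 18, 16, 59 and 40 tags from E13.5 to P21, or 2.34%, 2.05%, 4.22%, 5.0%, 10.9% and 13.2% of the pair. The distal site held 292, 286, 409, 304, 482 and 263 tags, so the shares at P6 and P21 lay above those of the 4 earlier stages. The log2 odds of distal over proximal changed by -3.03 (edgeR diffSpliceDGE, adjusted p = 0.0353). The call was lost without any single library (adjusted p = 0.0512 to 0.162), in each column alone (0.0761 and 0.0861) and with days after conception (0.195).

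Rpgr is known for a retinal isoform, ORF15, that ends within an intron of the constitutive transcript, and whether the proximal site belongs to it was not tested. No annotated sequence covered the proximal site. A poly(A) signal before it, or A-rich sequence after it on which oligo(dT) can prime, was therefore not checked. The last exon ends with a canonical signal, here with the 30 bases that begin at it (mm10 minus strand, chrX:10158223-10158252):
Rpgr distal site: AATAAActatgtctggttggttctgctgtc

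Bbs12 and Ift22 came next. Bbs12 had 2, 1, 8, 3, 3 and 50 tags at an intronic site 505 bases from its start, and 97, 101, 121, 88, 162 and 207 at its 3′ UTR site. The intronic share was thus 19.5% at P21 (Wilson 95% interval 15.1 to 24.7), against 0.980% to 6.20% at the earlier stages (log2 odds -3.87, edgeR adjusted p = 0.0871). The shift passed with days after conception (-3.42, adjusted p = 0.0242). The tags at P21 were 23 and 27 in the 2 columns. The intronic tags contribute to the abundance of Bbs12 given above. No annotated sequence covered the intronic site, so a signal or A-rich sequence there was not checked.

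The distal share of Ift22 was highest at P21. The distal of its 2 leading 3′ UTR sites, 1266 bases downstream, took 22.1%, 20.2%, 21.4%, 26.1%, 29.3% and 42.1% of tags, with P21 above the intervals of all other stages (37.1 to 47.3 at P21, up to 33.6 at P6). The shift did not pass (log2 odds 1.33, edgeR adjusted p = 0.0686), and at P21 the share was 34.5% by the first column and 48.5% by the second. It passed with days after conception (edgeR diffSpliceDGE, adjusted p = 0.0330). With every site of at least 5% of its tags in the test, Ift22 had an adjusted p of 0.0161 in diffSpliceDGE. That p asks whether any of the sites differs, not whether the distal one gained. The proximal site has a variant signal and the 2 further ones the canonical signal, shown for that contrast (mm10 plus strand, chr5:136913215-136913244, chr5:136914481-136914510 and chr5:136915374-136915403):
Ift22 proximal site: tcatgCATAAAcatgtccttccttccggca
Ift22 distal site: ctcagaAATAAAgatgtggtctggtgagac
Ift22 last site: gaaaataaaAATAAAataagtaagagttcc

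**Figure D5:**
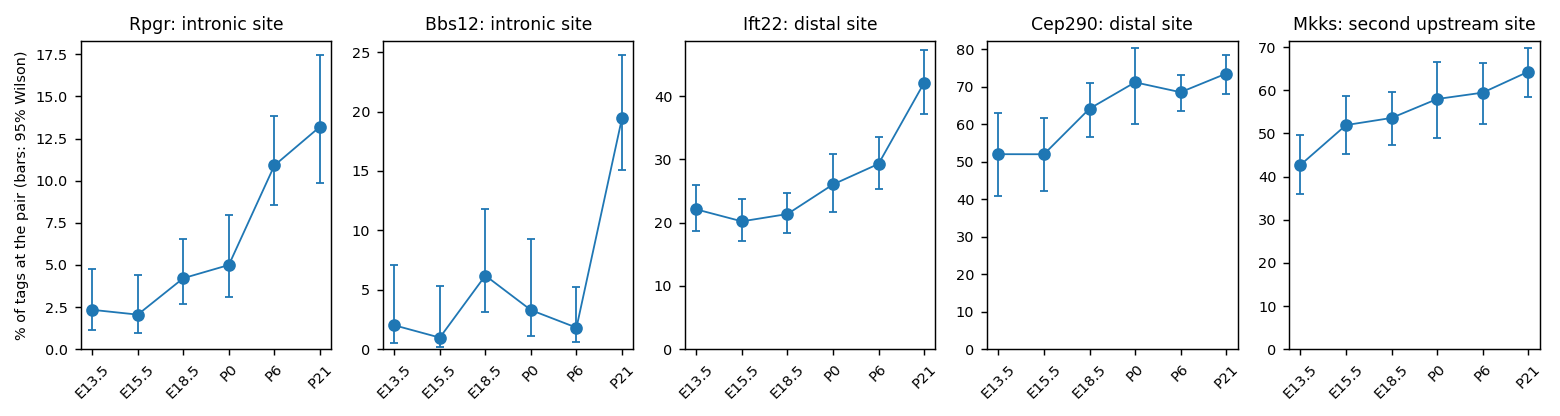
Percentage of the tags at the 2 strongest sites of each gene that fell on the named site, by stage, with 95% Wilson intervals that cover counting error only. The intronic sites of Rpgr and Bbs12 reach 13.2% and 19.5% at P21, and the distal shares of Ift22 and Cep290 reach 42.1% and 73.6%; of these shifts the one of Rpgr passed the test.

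By the mean distal share of the last 3 stages less that of the first 3, Cc2d2a, Cep290 and Nphp4 moved most, by 22.4, 15.0 and 13.0 percentage points. None passed (edgeR diffSpliceDGE, adjusted p = 0.275, 0.416 and 0.755), and their counts were small. The order rests on the summed columns: Cep290 moved by 7.98 points in the first columns, less than Mkks, Nphp4 and Ift22, and by 25.1 in the second. With every site of at least 5% of its tags in the test, Cc2d2a passed (edgeR diffSpliceDGE, adjusted p = 0.0215). With more than 2 sites that p asks whether any site differs, and it does not test a direction. The log2 odds of the last Cc2d2a site over the first then changed by -3.53, toward the proximal side. Of all Cc2d2a tags, 38.0% at P21 and 44.8% at E13.5 fell in the 3′ UTR. Cep290 had 52.1%, 52.0%, 64.2%, 71.2%, 68.6% and 73.6% of pair tags at the distal of 2 sites 485 bases apart in its 3′ UTR, with 38 to 238 tags there per library. The proximal site has a variant signal and the distal ATTAAA (mm10 plus strand, chr10:100573139-100573168 and chr10:100573624-100573653):
Cep290 proximal site: tttatgagtgaAAAAAGtttcagctggaaa
Cep290 distal site: aactgATTAAAcaaagactggttatcaaaa

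The distal Nphp4 site, with 60.4% of the tags of the gene, had no canonical or variant signal in the 40 bases before its edge. The proximal Nphp4 site carries another variant (mm10 plus strand, chr4:152563020-152563049), and the 3′ UTR site of Cc2d2a the canonical signal (chr5:43740938-43740967):
Nphp4 proximal site: caaactgtttTATAAAtggtttccaatgac
Cc2d2a distal site: tgaagttatggAATAAAattatcatctgta
The Cc2d2a proximal site lies in a coding exon and is followed by A-rich sequence, on which oligo(dT) can prime. Another Cc2d2a site, in an intron 746 bases from the gene start, had 0, 4, 4, 3, 14 and 55 tags, or 40.1% of Cc2d2a tags at P21 (32.3 to 48.5), against 15.2% at P6. The 137 Cc2d2a tags at P21, against 29 at E13.5, thus include 55 that end near the start of the gene. No annotated sequence covered this intronic site either, so a signal or A-rich sequence there was not checked.

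Over all 86 member sites, 62 had annotated sequence up to the edge. Of these 44 held AATAAA or ATTAAA in the 40 bases before it and 11 a variant signal alone. Of the 34 sites with 20 annotated bases after the edge, 4 were A-rich, 1 each in Ift74, Cep290, Tulp1 and Cc2d2a.

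RefSeq promoter windows (GRCm38.p6, 250 bases before to 50 after the gene start) were searched for TAATCC and its reverse complement GGATTA, the core letters bound by the photoreceptor factor Crx. They were present in 2 of 31 members with a window (6.45%), under the share of 8.14% over all genes with a window. Both were among the 13 that rose (15.4%), a count of 2 genes that is too small to be read as a trait of the rising members. The windows were at chr14:52110863-52110892 (plus strand, motif 28 bases before the start) and chr19:4906807-4906836 (minus strand, 197 bases before), motif in capitals:
Rpgrip1 promoter: gctaaaaggcctGGATTAgtgtctcctcta
Bbs1 promoter: tcagtctagtctTAATCCctaaaaagcgct
A match of these letters describes the window and does not show binding.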

How the data were processed

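PA-seq tags of 6 retina samples, 1 per stage, were analysed. The deposited table holds tag counts per poly(A) site in 12 columns, 2 per stage, and an enrichment score, per the file headers. The submitters' processing notes name BWA 0.7.5a-r405 and mm10; clustering and filtering of sites are not given in the sources used here. The deposited score was not used. Members and lists were chosen with earlier results of these data known. Sites, up to 24 bases past an annotated end counted as that end, were classed on GENCODE M21 models. Tags summed per gene were tested with edgeR 4.0.16 in R 4.3.3 (TMM, CPM of at least 1 in 2 libraries, 4 residual degrees of freedom) and site choice with diffSpliceDGE (each site at least 5% of tags, mean of 20 tags at the pair). Intervals (95%, Wilson or exact binomial) and the floor of 3 tags cover counting error only, since PCR copies are not separate molecules. On simulated counts for 14732 genes, 96.0% of log2 changes of 2 and 100% of 3 along stage order were called. On 6202 site pairs the shares were 75.0% and 98.0%. The simulation gave all genes the same fixed scatter, and it changed the abundance only of genes above a minimum mean level. Recovery of smaller changes, of genes with more scatter, or of levels that step or dip away from a straight line, was not tested. DESeq2 1.42.0 was an alternative. Named members passed a test or were the 2 most abundant of their group; other genes named were the 3 largest passing changes per list, and sequences the 3 largest moves in distal share. Rpgr, Ift22, Mkks, Bbs12, Lca5 and Bbs5 details and the promoter search were added after values were seen.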

Additional observations from a re-analysis of the deposited data

How the results depend on the processing

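Rising members numbered 13 in the reported fit and 13 with RLE size factors, without a filter, with days after conception, in the second columns and without the downstream flank. They numbered 12 in the first columns, 12 without shared sites (Bbs12 then has none left), 14 with DESeq2 1.42.0, which also called Bbs5, and 11 without E15.5 and P0, a setting chosen after seeing the data. Leaving out 1 library at a time gave 3 (without P21) to 14 rising members; it gave 8 without E13.5, 7 without E15.5 and 8 without P6. Falling members numbered 0 to 2 in these runs, 0 with days, 0 without E15.5 and P0 and 1 in the second columns. Members shifting distal numbered 0 in the reported test and 0 to 0 without a single library, and 1 with days and 1 with all sites in the test. Members shifting proximal numbered 1, then 0 to 0 without a single library, 0 at a minimum share of 10% (which excludes the pair of Rpgr), 0 in the first columns, 0 in the second, 0 without E15.5 and P0, 1 with days (Bbs12 in place of Rpgr) and 2 with all sites. All sites here means every site with at least 5% of the tags of its gene. With them, Cc2d2a reversed to a log2 odds change of -3.53, because its intronic site then becomes the proximal one. For genes with more than 2 such sites, the p asks whether any site differs. Their direction was read apart from it, from the last site against the first. Over all genes, rising calls numbered 2505 in the reported fit and 831 without P21. Depth limits the site shares of Cc2d2a, Nphp4 and Bbs12, with as few as 20 tags per library. No paired analysis was possible because each stage had 1 sample.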
